A study of Solanum tuberosum with 12 samples.

Results

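Of the 39027 potato genes in the count tables, 58 stood above the never-frozen level in cryopreserved shoot tips recovering under either kind of light, and at or below that level in cryopreserved tips kept in darkness. They were chosen on group means of CPM, the reads of a gene per 1000000 reads counted in a library. A member had at least 5 CPM under cool white light, at least 1.5 times the non-cryopreserved mean and at least 2 times the dark mean under each light, a dark mean no higher than the non-cryopreserved mean, and a cool white mean under 2 times the LED mean. Every comparison among the 4 groups entered this choice, so the levels below describe the members and are no test of them.

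The tips came from in vitro plants of the potato genotype Agrie Dzeltenie aged 3.5 weeks, with 10 tips pooled per library and 3 biological replicates per group. The non-cryopreserved group was exposed for 16 h to cool white fluorescent light only. The other groups were frozen by the droplet method in 10% dimethyl sulfoxide (DMSO, a cryoprotectant) with sucrose, stayed 1 h in liquid nitrogen, were rewarmed in liquid medium for 1.5 h and spent 48 h in darkness on regeneration medium. For the last 16 h they were given cool white light, a mixture of 90% red and 10% blue light from light-emitting diodes (LEDs), or further darkness, with 40 µmol per square metre per second in each lit group. The regeneration medium held zeatin riboside, gibberellic acid and indole acetic acid, which are plant growth regulators. The labels give neither a dark period nor a regeneration medium for the control tips, so comparisons with that group include any such difference in handling.

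Plants sense red and far-red light through phytochromes and blue light through cryptochromes and phototropins, and both branches act on shared transcription factors that turn on genes for greening, light protection and growth in the light. In shoots returned to darkness many such genes lose their transcripts, and a renewed light period restores them. Cryopreservation adds osmotic stress, freezing injury and regrowth, each with its own transcript response.

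The files give gene identifiers that start with PGSC0003DMG and no names. None of them, 0 of 39027, was found in RefSeq's gene list for potato (SolTub_3.0), so no member is given a function and no marker of tissue or cell type could be looked up. Each library held between 6342324 and 10572258 counted reads. All 58 members had enough reads to be tested, and 56 had a read in every library. For the members, non-cryopreserved replicate 2 stood apart from the other 2 controls, and values without it are given beside those with it. Members PGSC0003DMG400006285 and PGSC0003DMG400018246, named after their values were seen, had the same count in each of the 12 libraries, so the 58 members hold 57 distinct profiles and each tally of members that includes this pair counts it as 2 genes. Among all tested genes, 17 shared their counts in every library with another gene, in 8 profiles. CPM is not divided by gene length, so it orders samples within a gene and does not order transcripts between genes.

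The 58 genes are one end of a larger set that was low in the dark. Of 15351 genes with at least 5 CPM under cool white light, 586 had at least 2 times the dark level under both lights, 549 of these had a dark level no higher than the non-cryopreserved one, and 510 of those were under 2 times as high under cool white light as under LEDs. Among the 510 genes, 388 were under 1.5 times the non-cryopreserved level in both lights, 52 reached it under cool white light alone, 12 under LEDs alone, and 58 under both. A further 35 genes met every other criterion but had a dark level above the non-cryopreserved one, and 3 more failed only the limit on cool white over LED.

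The limit of 1.5 times cut through a continuous range. Taking for each of the 510 genes the smaller of its 2 ratios of light over non-cryopreserved tips, the median was 0.864, the 75th percentile 1.16 and the 95th percentile 1.91. There were 294 genes between 0.5 and 1 times, 119 between 1 and 1.5, 36 between 1.5 and 2, 13 between 2 and 2.5, 5 between 2.5 and 3 and 4 between 3 and 4. The number of genes per step shrank steadily from 0.5 times upward, across the limit. The 2 members nearest above it were PGSC0003DMG400016625, at 1.54 times, and PGSC0003DMG402031520, at 1.55 times. The 2 genes nearest below it, with every other criterion met, were PGSC0003DMG400000557 at 1.48 times and PGSC0003DMG400033928 at 1.47 times.

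**Figure D1:**
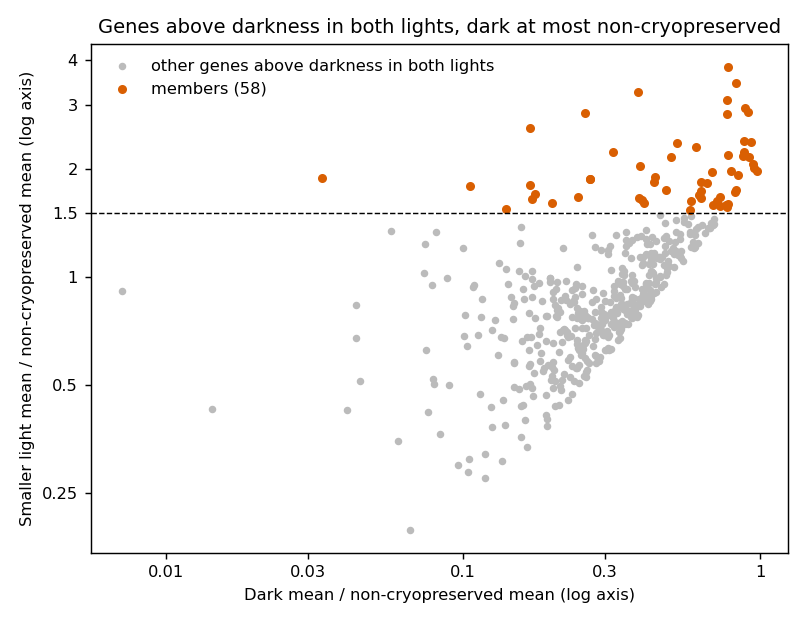
Each point is 1 of the 510 genes with at least 2 times the dark level in both lights and a dark level no higher than in non-cryopreserved tips. The horizontal axis is the dark mean and the vertical axis the smaller light mean, both as ratios to the non-cryopreserved mean on log axes. The 58 members (orange) lie above the dashed line at 1.5 and reach 3.83 times, and the lower edge of the cloud is set by the requirement of 2 times the dark level.

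Together the members took a small share of the reads. As the criteria require, the share was higher in light than in darkness among cryopreserved tips, with the control, which was also lit, between them. Their summed level was 624, 853 and 617 CPM in non-cryopreserved replicates 1 to 3 and 390.01, 433 and 409 CPM in dark replicates 1 to 3. It was 1769, 1661 and 1478 CPM under cool white light and 1582, 1641 and 1336 CPM under LEDs. The ranges of the 2 lights overlapped each other, and no other groups overlapped. The means (± SD, n = 3) were 698 ± 135 CPM for the control, 1636 ± 147 CPM for cool white, 1519.6 ± 161 CPM for LED and 410.4 ± 21.4 CPM for dark tips. Relative to the non-cryopreserved sum these are 2.34 times, 2.18 times and 0.588 times, or 2.64, 2.45 and 0.662 times without non-cryopreserved replicate 2. Leaving out the 5 members with the highest cool white level gave 2.26, 2.22 and 0.617 times. Without them the cool white sum was 1038 CPM and the control sum 460 CPM. The criteria hold any subset of members to at least 1.5 times the control in each light and at most the control in darkness. In such bulk samples, fewer cells of a type and less RNA per cell cannot be told apart.

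The typical member stood at about 2 times the never-frozen level in light. The ratio of cool white to non-cryopreserved means had a median of 2.15 and ran from 1.54 to 5.27, and that of LED to non-cryopreserved means had a median of 2.03 and ran from 1.55 to 7.30. Over the 15351 genes at this cool white level the medians were 1.08 and 1.06. Without non-cryopreserved replicate 2 the members' medians were 2.64 and 2.32. The smaller of a member's 2 ratios was under 2 for 36 members and at 2 to 4 for 22. No member, 0 of 58, reached 4 times in both lights. Against darkness the medians were 3.804 times under cool white light and 3.64 times under LEDs, where all genes at this level had 1.04 and 1.04.

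Over the members, dark over control had quartiles of 0.393 and 0.793, and the smaller light ratio had quartiles of 1.66 and 2.21. The criteria hold darkness to at most the control and each light to at least 1.5 times it. The light measure also takes the smaller of 2 ratios, so the 2 spreads are not compared. The dark mean was at most 0.5 times the non-cryopreserved mean for 21 members, over 0.5 to 0.8 times for 23, and over 0.8 times for 14. In the first class the smaller light level was at a median 6.99 times the dark level, against 2.74 and 2.41 times in the other classes. The smaller light level had a median of 1.80, 1.74 and 2.16 times the non-cryopreserved level in the same order, where the requirement of 2 times darkness itself raises the lowest ratio that the last class can have. The classes and this ratio also divide by the same control libraries, so no relation between them is read from these medians. The pair with identical counts is in the first class, with 9, 52 and 33 reads each in control replicates 1 to 3, 12, 7 and 5 in darkness, 71, 60 and 45 in cool white tips and 75, 59 and 85 in LED tips. The 58 genes span genes nearly lost in darkness and genes that stayed close to their never-frozen level there.

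**Figure D2:**
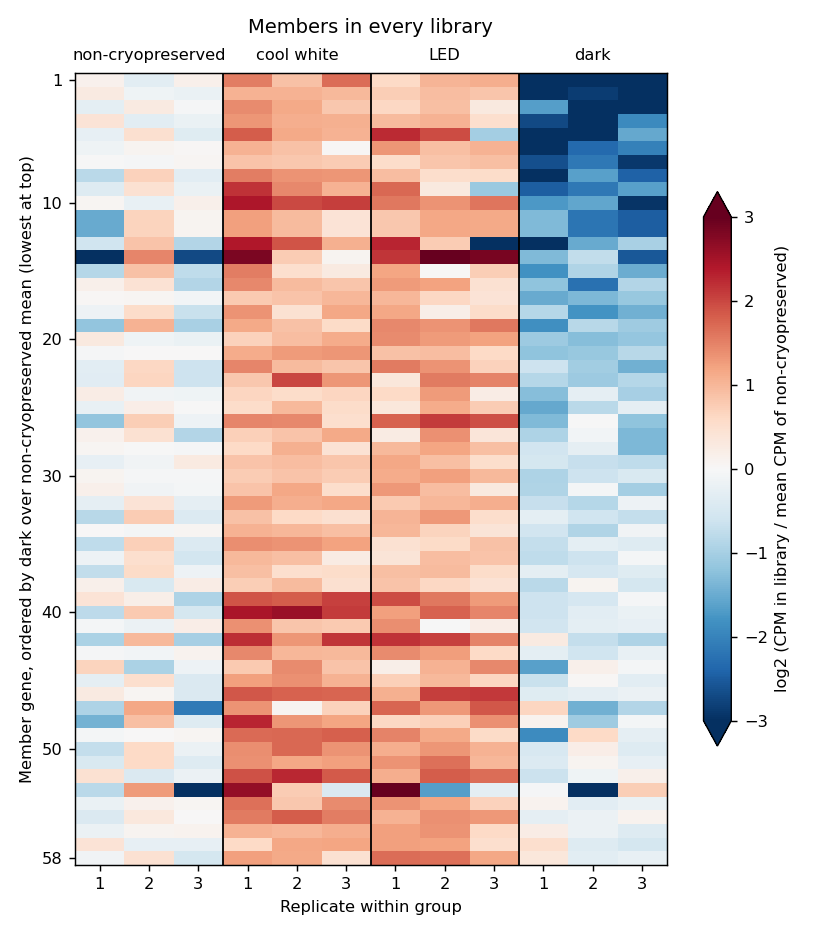
Each row is 1 of the 58 members, ordered by dark over non-cryopreserved mean with the lowest at the top, and each column 1 of the 12 libraries by group and replicate. Colour gives log2 of the library's CPM over the non-cryopreserved mean, limited to between -3 and 3, with a library at 0 reads drawn at the value of 1 read. The light libraries are red in most rows, and the dark libraries grade from deep blue in the first rows to near white in the last, where the dark mean reached 0.973 times the control.

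The calls of the whole-table fit describe how far these differences exceeded the spread between libraries. By edgeR's quasi-likelihood fit, with p-values adjusted after Benjamini and Hochberg, 43 of 58 members were higher under cool white light than in non-cryopreserved tips, a call that 27.8% of all 19920 tested genes received, and 44 were higher under LEDs, against 27.3% of all. For light above darkness the counts were 54 under cool white light, against 10.4% of all, and 51 under LEDs, against 7.17%. All 4 of these calls together were made for 36 members, against 0.818% of all. Since the same libraries chose the members, nothing is read from these counts beyond how many members were separated.

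The lower dark level was separated from the control for fewer members. Darkness was called lower than non-cryopreserved tips for 20 of 58 members, against 27.6% of all tested genes. These were 17 of the 21 members at up to 0.5 times, 3 of the 23 at over 0.5 to 0.8 times, and 0 of the 14 above 0.8 times. The classes are cut on the same dark and control libraries that the call compares, so the falling count follows from the classes. Without non-cryopreserved replicate 2 the calls of lower dark levels numbered 15, and darkness was above the mean of the remaining controls for 14 members. The share of all tested genes called in that fit is not given here, so nothing about the members is read from the 15. The median log2 difference of darkness from non-cryopreserved tips was -0.63 over the members and -0.01 over all tested genes. Under cool white light the medians were 1.05 and 0.05, and under LEDs 0.97 and 0.03.

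Counts of libraries describe the same differences in the same 12 libraries that chose the members, so they add no separate support. All 6 light libraries lay above all 3 non-cryopreserved libraries for 34 members, against 26.8% of tested genes, and above all 3 dark libraries for 54, against 12.9%. With control replicates 1 and 3 only, the first count was 52, against 32.3% of tested genes. For 33 members every light library lay above every other library, against 3.03% of tested genes. The full order, with light above non-cryopreserved and non-cryopreserved above dark in every library, held for 17 members, against 0.331% of tested genes.

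The 36 members called in all 4 comparisons had more reads than the other 22. Their median cool white level was 25.2 CPM and their median total over 12 libraries 1677 reads, against 7.66 CPM and 518 reads. The median coefficient of variation (CV, SD over mean) among non-cryopreserved libraries was 24.2% in the 36 and 56.2% in the 22.

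The members with the highest levels under cool white light were among those with every light library above every control and dark library. PGSC0003DMG400033650 had 71.3, 69.4 and 79.1 CPM in non-cryopreserved replicates 1 to 3, 200.5, 146 and 143 CPM under cool white light, 194, 174 and 111 CPM under LEDs, and 59.4, 48.6 and 62.9 CPM in darkness. Every light library was above every non-cryopreserved library, and every dark library below all of them, with means of 73.3 ± 5.17, 163 ± 32.2, 159.7 ± 43.6 and 56.98 ± 7.43 CPM (SD, n = 3) in the same order. Its lower dark level was not called by edgeR's quasi-likelihood test (log2 difference from control -0.34, adjusted p 0.141), and its 2 lights overlapped. PGSC0003DMG400006781 had 53.1, 55.5 and 55.5 CPM without cryopreservation, 118, 133 and 138 CPM under cool white light, 100.7, 103 and 82.3 CPM under LEDs, and 23.6, 24.9 and 30.6 CPM in darkness. No 2 of its 4 groups overlapped, and its mean was 2.37 times the control under cool white light, 1.74 times under LEDs and 0.482 times in darkness.

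The members furthest above the control in both lights had lower levels. PGSC0003DMG400025947 had 1.73, 6.63 and 1.69 CPM in the controls, 15.7, 8.33 and 14.8 CPM under cool white light, 15.1, 13.9 and 9.46 CPM under LEDs, and 4.04, 2.03 and 1.75 CPM in darkness. Its light libraries were all above the others, at 3.86 and 3.83 times the control mean, while non-cryopreserved replicate 2 stood well above the other 2 controls and above the dark libraries. PGSC0003DMG400011016 had 10.1, 8.72 and 6.12 CPM in the controls, 30.1, 28.4 and 27.7 CPM under cool white light, 17.4, 35.3 and 36.1 CPM under LEDs, and 6.47, 6.84 and 7.31 CPM in darkness. It was 3.46 and 3.56 times the control mean in the 2 lights, and its dark libraries lay within the control range.

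The same 2 members had both the largest light over dark ratio and the lowest dark level relative to the control. PGSC0003DMG400019110 was counted with 1, 1 and 2 reads in the 3 dark libraries, and had 5.99, 4.42 and 6.12 CPM in the controls, 15.9, 10.2 and 17.5 CPM under cool white light and 8.32, 11.2 and 11.7 CPM under LEDs. Its means were 14.5 ± 3.88 CPM under cool white light, 10.4 ± 1.80 CPM under LEDs, 5.51 ± 0.944 CPM in the control and 0.185 ± 0.0935 CPM in darkness (SD, n = 3), so the dark mean rests on 4 reads. PGSC0003DMG400013481 was well counted, with 55.5, 41.6 and 40.1 CPM in the controls, 94.6, 94.9 and 90.3 CPM under cool white light, 76.2, 87.4 and 81.4 CPM under LEDs, and 4.58, 6.33 and 3.51 CPM in darkness. Its smaller light level was 17.0 times the dark level, its dark mean 0.105 times the control mean, and its light means 2.04 and 1.79 times the control mean, with no overlap between any 2 groups.

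At the other end, 2 members had a dark level almost equal to the control. PGSC0003DMG400009921 had 24.9, 37.2 and 18.9 CPM in the controls and 34.1, 21.8 and 23.0 CPM in darkness, a dark mean 0.973 times the control. It had 63.0, 59.8 and 36.9 CPM under cool white light and 85.9, 85.2 and 60.01 CPM under LEDs, so that cool white replicate 3 fell just below non-cryopreserved replicate 2. PGSC0003DMG400016915 had 6.15, 3.93 and 3.91 CPM in the controls, 7.03, 10.4 and 10.6 CPM under cool white light, 10.9, 10.7 and 6.66 CPM under LEDs, and 6.60, 3.55 and 3.22 CPM in darkness. Its dark and control libraries covered the same range, and the sign of the dark difference turned for both genes when single control or dark libraries were left out.

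**Figure D3:**
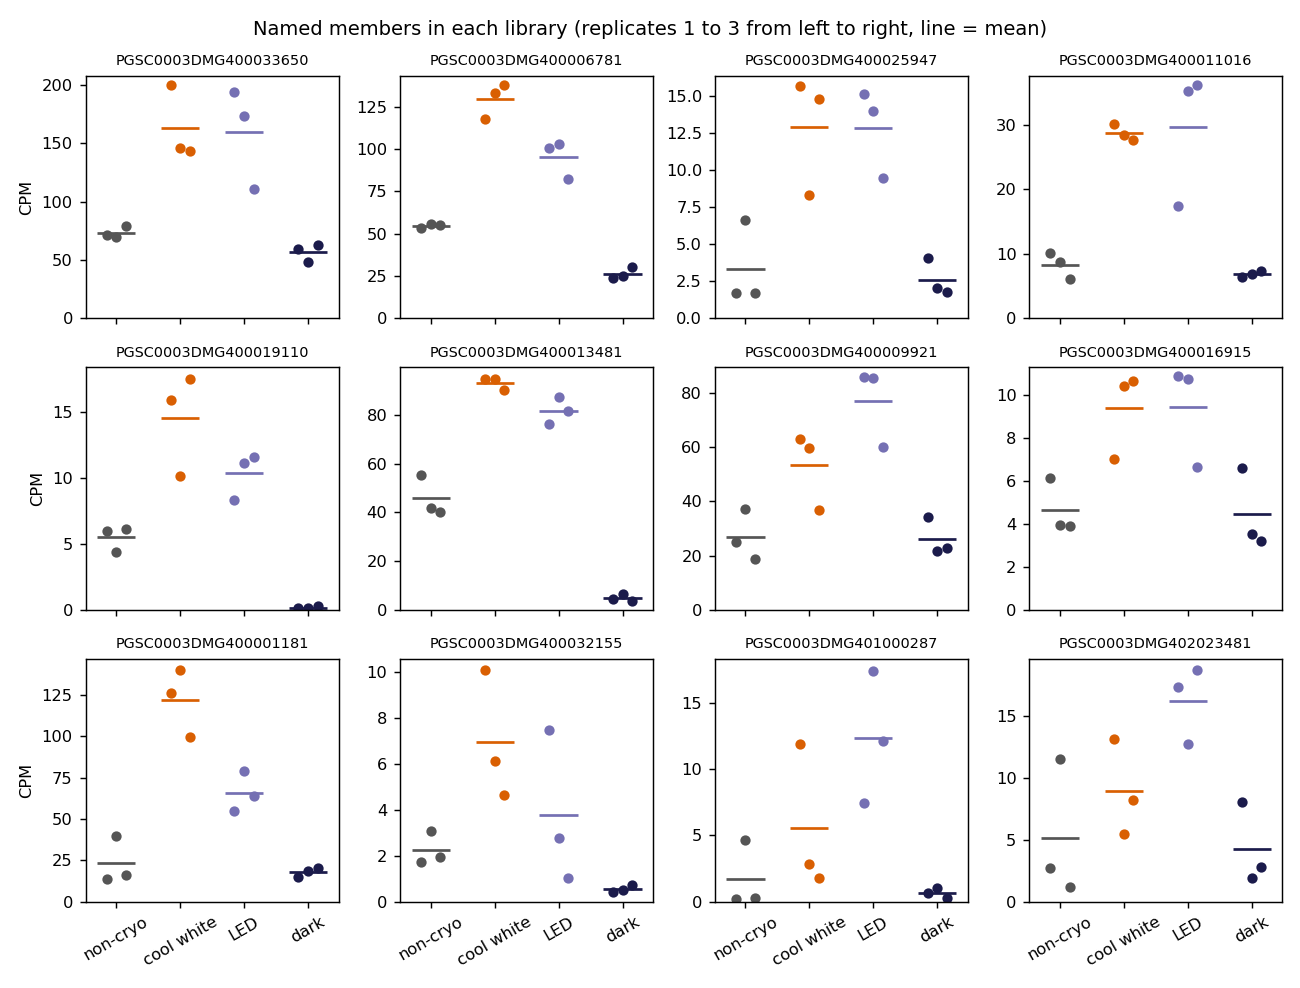
CPM in each of the 12 libraries for 12 members, with 1 point per replicate, a line at the group mean and a linear axis from 0. PGSC0003DMG400006781 and PGSC0003DMG400013481 show 4 groups without overlap, whereas in PGSC0003DMG401000287 and PGSC0003DMG402023481 non-cryopreserved replicate 2 overlaps the cool white libraries.

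Cool white and LED means were within a factor of 2 of each other for all members but PGSC0003DMG401000287, a bound that the choice sets in one direction. The ratio of cool white to LED means had a median of 1.05 and ran from 0.447 to 1.85 with quartiles at 0.906 and 1.28, against quartiles of 0.926 and 1.14 over the 15351 genes at this cool white level. It was below 0.8 for 8 members, above the reciprocal of 0.8 for 17 and between these for 33. The LED libraries lay wholly below the cool white ones for 13 members, against 13.3% of tested genes, and wholly above them for 4, against 9.08%. In edgeR's quasi-likelihood test 0 of 58 members were called between the lights, where 0.377% of tested genes were called higher and 1.06% lower under LEDs. At an unadjusted p under 0.05 the count was 11 of 58 members, or 18.97%, against 17.2% of all tested genes. DESeq2's Wald test called 2 members, PGSC0003DMG400006781 and PGSC0003DMG400014093, both lower under LEDs, with log2 differences of -0.41 and -0.61. Leaving out dark replicate 3 from the edgeR fit called the same 2, and leaving out non-cryopreserved replicate 2 called PGSC0003DMG400001181 and PGSC0003DMG400024357 instead, at -0.88 and -0.64. PGSC0003DMG400014093 and PGSC0003DMG400024357 are named because of these calls, after their values were seen. The shares of all tested genes called in these other fits are not given here.

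The members with the most unequal lights were of different kinds. PGSC0003DMG400001181 had 13.4, 39.9 and 16.1 CPM in the controls, 126, 140.2 and 99.5 CPM under cool white light, 54.7, 78.9 and 63.7 CPM under LEDs, and 14.95, 18.7 and 20.04 CPM in darkness. All its cool white libraries were above all its LED libraries, and these above all controls, with a cool white mean 1.85 times the LED mean and 5.27 times the control mean. Its dark libraries lay within the control range, all above control replicate 1 and below control replicate 2. The lower dark level was not called by edgeR's quasi-likelihood test (log2 difference -0.36, adjusted p 0.348). PGSC0003DMG400032155 also had a cool white mean 1.85 times the LED mean, but its LED libraries at 7.47, 2.76 and 1.04 CPM spanned the control range of 1.73 to 3.07 CPM and reached into the cool white range of 4.65 to 10.1 CPM.

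In the opposite direction, PGSC0003DMG401000287 had 11.9, 2.86 and 1.79 CPM under cool white light and 7.47, 17.5 and 12.2 CPM under LEDs, against 0.158, 4.67 and 0.260 CPM in the controls and 0.674, 1.01 and 0.293 CPM in darkness. PGSC0003DMG402023481 had 13.1, 5.47 and 8.23 CPM under cool white light, 17.3, 12.7 and 18.7 CPM under LEDs, 2.68, 11.5 and 1.17 CPM in the control and 8.08, 1.90 and 2.78 CPM in darkness. In both genes the cool white and LED libraries overlapped, and non-cryopreserved replicate 2 was the highest control by more than 4 times.

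For some low members 1 library set the group mean. PGSC0003DMG400017536 had 19.9 CPM in LED replicate 1 but 0.613 and 1.56 CPM in LED replicates 2 and 3, with 1.104, 4.67 and 0 CPM in the control, 11.9, 3.26 and 1.43 CPM under cool white light and 1.89, 0.127 and 3.22 CPM in darkness. Its CV under LEDs was 148%, the largest of any member under either light. PGSC0003DMG400033693 followed, with 6.999, 2.45 and 0.104 CPM under LEDs and a CV of 110%. It had 0.946, 2.58 and 0.781 CPM in the control, 7.56, 5.34 and 2.98 CPM under cool white light and 0.135, 0.507 and 0.731 CPM in darkness. Without LED replicate 1 the log2 difference of LEDs from non-cryopreserved tips turned to -0.81 for PGSC0003DMG400017536 and to -0.41 for PGSC0003DMG400033693.

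The median CV within groups was larger for the members than for tested genes above the same floor, without matching of levels above it. Among members with a group mean of at least 5 CPM the median CV was 24.3% in non-cryopreserved tips (35 members), 18.2% with cool white light (58), 21.0% with LEDs (53) and 17.5% in the dark group (25). The medians over all tested genes at that level were 10.00%, 8.68%, 11.9% and 9.74%. In the 388 genes that light brought to under 1.5 times the control they were 11.2%, 11.2%, 23.3% and 14.8%. The choice rests on means over these libraries, and the part of their spread in it was not tested.

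Much of the spread among controls lay in 1 library. Non-cryopreserved replicate 2 was the highest control library for 36 of 58 members, against 38.3% of tested genes with a control mean of at least 5 CPM. The median member stood 0.37 above its control mean there on the log2 scale, against 0.01 for those genes, and at -0.20 and -0.19 in replicates 1 and 3. It was at least 2 times as high there as in both other controls for 12 members, or 20.7%, against 1.38% of tested genes with a control mean of at least 1 CPM. In replicates 1 and 3 the same was true of 0 members each. Elsewhere there were 4 such members in LED replicate 1, or 6.90%, against 0.752% of tested genes with an LED mean of at least 1 CPM. Cool white replicate 1 had 3, or 5.17%, against 0.481% of tested genes with a cool white mean of at least 1 CPM. Any other library had at most 1.

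**Figure D4:**
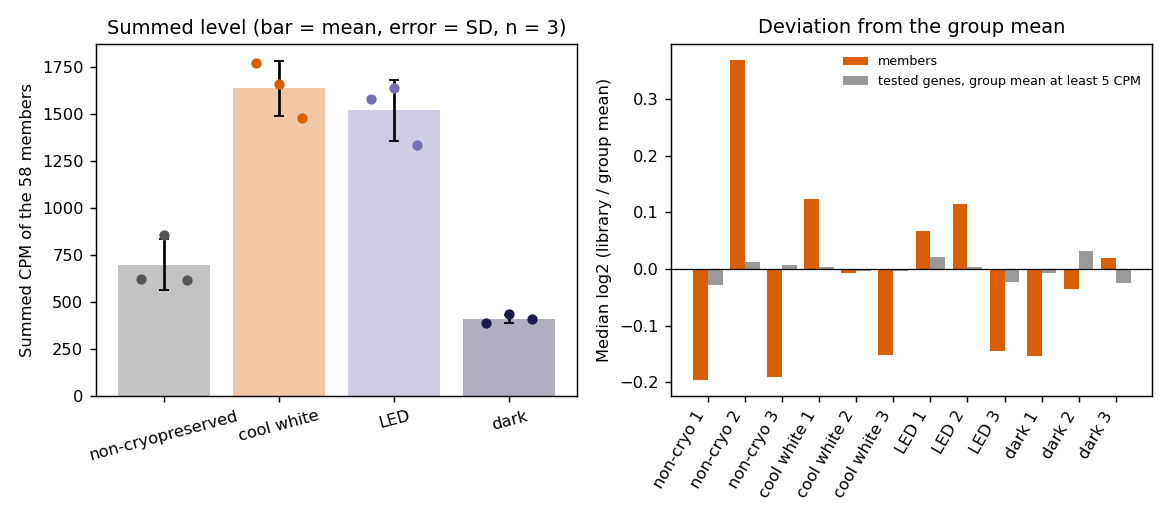
Left, summed CPM of the 58 members in each library, with the bar at the group mean and the error bar the SD of 3 libraries. Right, the median over members, and over tested genes with a group mean of at least 5 CPM, of log2 of the library's value over its group mean. Non-cryopreserved replicate 2 stands 0.37 above its group for the members and 0.01 for tested genes.

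The place of these 12 members between dark and control rests on that library. Their dark over control had a median of 0.711 with all 3 controls and 1.15 without replicate 2, where darkness was above the remaining controls for 8 of the 12. For the other 46 members the medians were 0.633 and 0.660. Since the 12 were picked for their high value in replicate 2, a rise without it follows from the choice and only its size is described. Cool white replicate 1 was the highest cool white library for 11 of the 12 members and for 23 of the other 46. The share among tested genes with a cool white mean of at least 5 CPM was 34.6%. Without non-cryopreserved replicate 2 the same criteria gave 71 genes, of which 42 were among the 58. Of the 16 lost, 14 had a dark mean above the new control mean and 2 had a light under 1.5 times it, and 29 genes were gained.

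The only values the choice can be held against are those of libraries it did not use. The criteria were therefore applied with replicate 1, 2 or 3 of every group left out, and the genes so chosen were looked at in the left-out libraries. These numbers were not clearly found to link libraries across groups, though the check is weak, so each left-out set is read as just 1 library per group. On the other 8 libraries the criteria gave 48, 74 and 76 genes, of which 32, 38 and 47 were among the 58.

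Light above darkness carried over to the left-out libraries more often than light above the control did. The criteria had asked for 2 times darkness but only 1.5 times the control, so the 2 are not on equal terms. Both lights were above darkness in the left-out libraries for 45 of 48, 72 of 74 and 70 of 76 genes, against 42.1%, 39.3% and 45.3% of tested genes at the same cool white level. Both reached 2 times the left-out dark level for 35, 53 and 42 genes, against 4.94%, 4.54% and 2.68%. Both were above the left-out control for 41 of 48, 45 of 74 and 60 of 76 genes, against 51.5%, 46.5% and 47.7%. Both reached 1.5 times that control for 28, 28 and 40 genes, against 18.96%, 17.96% and 20.05%. The dark library was at or below the control for 30, 64 and 51 of them, against 48.1%, 50.1% and 51.5%. The whole set of criteria was met by 13, 19 and 14 genes, or 27.1%, 25.7% and 18.4%, against 0.496%, 0.502% and 0.293% of tested genes.

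In left-out libraries the genes so chosen stood above the control by different amounts. The median ratio of cool white to control was 2.34 in left-out replicate 1, 1.58 in replicate 2 and 2.33 in replicate 3, where the libraries used for the choice had given 2.12, 2.33 and 2.26. Under LEDs it was 2.10, 1.41 and 1.81, against 1.99, 2.09 and 2.06 in the libraries used. Over tested genes at the same level the left-out medians were between 1.03 and 1.12 in both lights. Replicate 2 was lowest in both. Each left-out set changes a library of all 4 groups and the genes chosen with it, so the part of any single library in these differences was not tested.

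**Figure D5:**
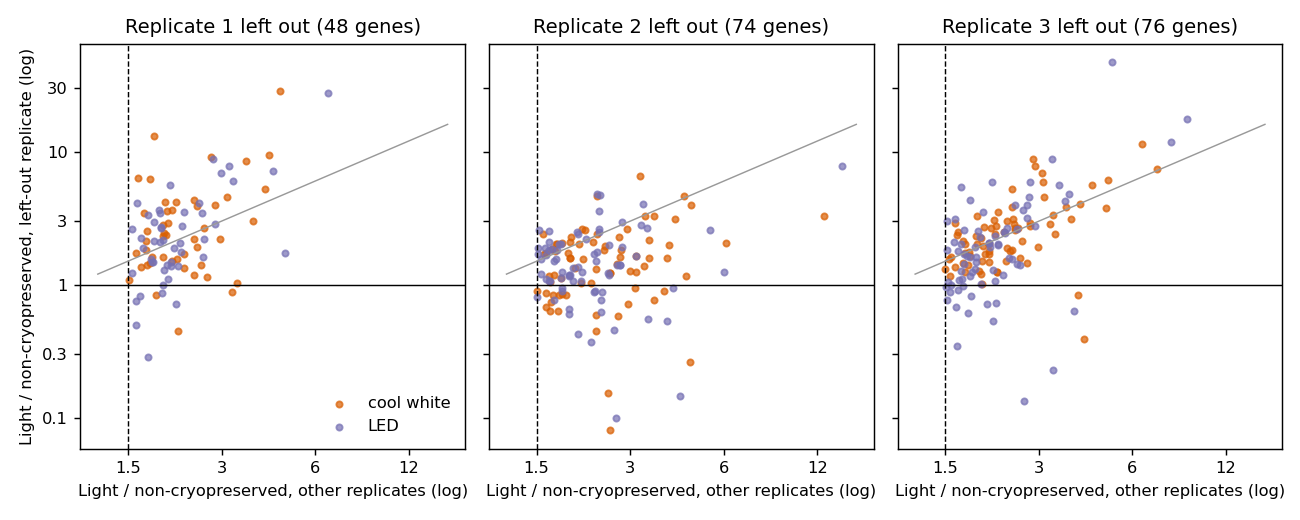
For genes chosen without replicate 1, 2 or 3, the ratio of light to non-cryopreserved level in the libraries used (horizontal, group means) is plotted against that in the left-out replicate (vertical), on log axes, with cool white in orange and LED in purple. The dashed line is the limit of 1.5, the solid horizontal line no difference and the grey line equality; 1 gene with 0 control reads in the left-out library is not drawn. Points lie on both sides of equality for replicates 1 and 3 and mostly below it for replicate 2, where the medians were 1.58 and 1.41.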

How the data were processed

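Each deposited file gives 1 library's raw counts of reads by gene, which the authors left unnormalized per the file headers and values. The submitters' processing notes name TopHat2 2.0.8b with Bowtie 1.1.1, FastQC 1.11.2, DESeq2 1.14.1 and featureCounts 1.5.0. Genome build, annotation release and strand setting: not given in the sources used here. Counts of antisense, overlapping or near-identical genes are therefore uncertain. Per the labels' protocols, libraries were stranded and made from RNA of 10 pooled tips. Rows that name no gene numbered 0.

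Members were chosen on CPM (count over library total, times 1000000), the scale of every level printed. Log2 fold changes and calls came from edgeR 4.0.16 in R 4.3.3. filterByExpr (minimum count 10, minimum total 15) kept 19920 genes, TMM factors scaled the libraries, and the 12 libraries were fitted by group with glmQLFit and tested two-sided with glmQLFTest, with 8 residual degrees of freedom. Genes with a Benjamini-Hochberg adjusted p under 0.05 over all genes tested were called. The fits were tested on simulated data. Members and lists were chosen with earlier results of these data known. Genes named are the 2 at the end of each ranking of members by level, ratio or CV and the 2 on each side of the limit of 1.5. The fixed lists of pathway genes and cell type markers matched no identifier and gave no result. Alternatives were other scalings, DESeq2 1.42.0, no filter, other limits, group medians, fits of 2 groups, replicate number as a block and left-out libraries. Ratios that share control libraries were set side by side as description only, and no relation between them was tested.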

Additional observations from a re-analysis of the deposited data

How the results depend on the processing

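The count of 58 members became 51 on TMM-scaled CPM and 46 with DESeq2 size factors, all of them among the 58, and 62 with group medians, of which 40 were. It moved with the limits: 142 genes at a cool white level of at least 1 CPM, 37 at 10 CPM, 22 at 2 times the control and 100 at a limit lower than 1.5. Without the limit on cool white over LED it was 61. Leaving out libraries gave 48 to 76. Scaling by library size only put the median log2 difference of all tested genes between cool white and control at 0.11, against 0.05 with TMM.

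Leaving out single libraries gave 32 to 46 called members for cool white and 31 to 46 for LED above control, 46 to 56 and 41 to 54 above darkness, 15 to 25 for darkness below control and 0 to 2 between lights, where DESeq2 gave 2. Shares of all tested genes in these fits are not given here, so the counts show only how far the calls moved. The share of chosen genes with both lights above the left-out control was 60.8% to 85.4%. Over single libraries left out, the log2 difference from control changed sign for PGSC0003DMG400009921 in darkness (-0.25 to 0.27; above 0 at 0.27 without control replicate 2 and 0.097 and 0.062 without dark replicate 2 or 3) and PGSC0003DMG400016915 in darkness (-0.43 to 0.23; above 0 at 0.23 without control replicate 1 and 0.11 and 0.15 without dark replicate 2 or 3). It did so under LEDs for PGSC0003DMG400017536 (-0.81 without LED replicate 1, up to 3.82) and PGSC0003DMG400033693 (-0.41 without LED replicate 1, up to 1.85). Under cool white light it did so for the non-member PGSC0003DMG400000557 (-0.013 without control replicate 3, 2.29 without control replicate 2).

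No clear pairing of libraries by replicate number was found. Deviations of same-numbered libraries correlated at -0.28 to 0.23, over 0.1 in 4 of 18 pairs, and 4 of 18 correlated best with their own number. With 3 libraries per group this check is weak, so no conclusion on pairing is drawn from it. With the replicate block 42 and 44 members were called above control, 54 and 50 above darkness, 24 lower in darkness than control and 0 between lights. For this fit, too, the shares of all tested genes are not given here.

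Limits: members were chosen and described on the same 12 libraries. The lowest members rest on few reads, down to 4 over a group. Genes without names cannot be grouped by function, and 1 pair of members with identical counts may be copies that share reads.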
